A study of Mus musculus with 6 samples.

Results

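The genes described here are Adipoq, Lep, Cfd and Retn, whose products fat cells secrete, Pparg and Fabp4, which serve fat cell differentiation and fatty acid transport, and Plin1, Plin2, Plin4 and Cidec, whose products sit on lipid droplets. They are 10 of the 48440 genes in the count table, found there by symbol, and were selected on earlier results of the same samples, so their values are a description and carry no test. RNA was sequenced from samples of BEC harvested together with the entangled mouse tissue, and reads were mapped to the mouse genome. BEC is cartilage engineered from rabbit bone marrow stromal cells on a PLGA scaffold. It was harvested after 12 weeks under the skin of male BALB/c nude mice, which lack a working thymus. The study describes the profiles as those of the mouse tissue around BEC, and the share of rabbit RNA was not tested. In the 3%-Axitinib group (3 samples) BEC was wrapped in an electrospun membrane of PCL and collagen holding axitinib, an inhibitor of the VEGF receptor kinases, at 3% of its weight, and in the 0%-Axitinib group (3 samples) the same membrane held no drug. The labels name the latter samples untreated, and reading them as 0%-Axitinib rests on the design text of the series. Each mouse carried 2 constructs of a single group and the labels name no mouse, so n counts samples and their spread may be partly technical.

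White fat cells store triglyceride in a large droplet coated by perilipins, which control the access of lipases, and by Cidec, which makes droplets fuse and grow. The nuclear receptor PPARγ drives the differentiation of these cells and switches on many of their genes, among them Adipoq, Fabp4, Plin1 and Cidec. Other cells share some of these genes: Plin2 coats droplets in most cell types, including lipid-laden macrophages, Fabp4 is also made by capillary endothelium, and Plin4 by muscle.

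Between 9225518 and 18403795 reads per sample fell on genes, and levels are given as CPM, counts scaled to a common library size with TMM. Unmapped reads made up 5.47%, 3.84% and 14.9% of the libraries of 0%-Axitinib replicates 1, 2 and 3 and 48.4%, 29.2% and 16.8% of those of 3%-Axitinib, so that every treated library lay above every control; their bearing on the levels of the 10 genes was not tested. A count of 3, taken as the limit of detection for counting error alone, stood for 0.157 to 0.330 CPM. All 10 genes passed the filter on low counts, Lep through the controls alone, as did 15257 genes in all. With 3%-Axitinib compared to 0%-Axitinib, 9 of the 10 had a negative log2 fold change, and their median was -1.27 where that of all tested genes was -0.03. By the study's criterion, a fold change of at least 1.5 at an unadjusted P-value of at most 0.05, 3 of the 10 were lower (Lep, Fabp4 and Pparg), beside 11.7% of all tested genes, and 1 was higher (Plin4), beside 9.54%. The 3%-Axitinib samples all lay below the 0%-Axitinib samples for 5 of the 10, beside 16.6% of tested genes, and all above for 0 of the 10, beside 14.7%. After Benjamini-Hochberg adjustment, edgeR's quasi-likelihood test left 1 gene (0.00655% of those tested) at an adjusted p of at most 0.05, with 0 of the 10 among them, out of 3585 genes at an unadjusted p of at most 0.05. DESeq2's Wald test left 1961 genes, including 4 of the 10, and limma-voom 2 genes, including 0. Because the 10 genes were chosen with this contrast known, nothing was read from these shares.

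Adipoq, on chromosome 16 of GRCm38 (23146536 to 23158028, plus strand), encodes adiponectin, a hormone made almost only by fat cells. Its level was 22.0, 16.7 and 22.4 CPM in 0%-Axitinib replicates 1, 2 and 3, here called the controls, and 16.1, 0.456 and 2.95 CPM in 3%-Axitinib replicates 1, 2 and 3. Only a small gap parted the groups: 3%-Axitinib replicate 1 was close to the controls, replicate 3 far below them, and replicate 2, with 5 reads, near the limit of detection. The log2 fold change was -1.67 (SE 0.99). SE is an approximate standard error, the size of the log2 fold change divided by the square root of edgeR's F statistic. It was -1.12 without 3%-Axitinib replicate 2 and -3.53 without replicate 1, where Adipoq met the study's criterion, as it did with limma-voom (-2.89) and with the replicate block (-2.66). In bulk tissue, fewer fat cells and less RNA per fat cell cannot be told apart.

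Cfd (chromosome 10, 79890853 to 79892655, plus strand) encodes adipsin, a complement protease secreted by fat cells. Its level was 124, 93.9 and 131 CPM in the controls and 110, 3.37 and 26.7 CPM in the treated samples. Retn (chromosome 8, 3655770 to 3660110, plus strand), the gene of the hormone resistin, had 6.26, 7.64 and 7.39 CPM against 6.05, 0.364 and 1.27 CPM. Both ranked the treated samples as Adipoq did, with replicate 1 near the controls and replicate 2 lowest. For Cfd the groups overlapped, and for Retn the highest treated value lay just below the lowest control. Cfd had a log2 fold change of -1.33 (SE 0.98), which was -2.93 without 3%-Axitinib replicate 1 and -0.78 without replicate 2. For Retn it was -1.49 (SE 0.86), and -3.06 and -0.98 without these samples.

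Plin1 (chromosome 7, 79720218 to 79732903, minus strand) encodes the perilipin of the fat cell droplet, which holds lipolysis back until it is phosphorylated. It was at 9.45, 10.3 and 7.88 CPM in the controls and at 10.8, 0.182 and 1.85 CPM in the treated samples. Cidec (chromosome 6, 113424634 to 113435760, minus strand), the droplet fusion factor, was at 23.0, 20.8 and 13.7 CPM against 22.1, 0.547 and 4.52 CPM. Here, too, 3%-Axitinib replicate 1 was like the controls, so that the groups overlapped, while replicate 2 held 2 reads of Plin1 and 6 of Cidec. Plin1 had a log2 fold change of -1.13 (SE 1.06), which was -3.11 without 3%-Axitinib replicate 1, -0.56 without replicate 2 and -0.76 without replicate 3. For Cidec it was -1.09 (SE 1.01), and -2.88, -0.54 and -0.77 without these samples in turn. Without replicate 1 Cfd, Retn, Plin1 and Cidec each met the study's criterion, as Adipoq did, among 1308 lower genes of 15878 tested. They also met it with limma-voom. Replicate 1 was the treated sample closest to the controls, so nothing is read from the calls without it.

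Adipoq, Cfd, Retn, Plin1 and Cidec thus ran in parallel over the treated samples, while their order among the controls differed. Summed, they reached 185, 149 and 183 CPM in the controls and 165, 4.92 and 37.3 CPM in 3%-Axitinib replicates 1, 2 and 3. The treated sums were 95.5%, 2.86% and 21.7% of the mean of the controls, so replicate 1 was within their range and the others far below it. Per read of Adipoq, reads of Cfd varied 1.61-fold over the 6 samples, those of Plin1 1.91-fold, those of Cidec 2.51-fold and those of Retn 2.81-fold. The ratio of Retn was highest in 3%-Axitinib replicate 2, where it rested on 4 reads of Retn and 5 of Adipoq. For Pparg the same ratio varied 39.8-fold, for Fabp4 40.8-fold, for Plin4 82.1-fold and for Plin2 91.2-fold. Without 3%-Axitinib replicate 2 it varied 6.86-fold for Pparg, 5.57-fold for Fabp4, 82.1-fold for Plin4, 16.9-fold for Plin2 and 1.61-fold for Retn. Over the 6 samples, log2 CPM of Pparg, Fabp4, Plin2 and Plin4 correlated with the mean of Adipoq, Plin1, Cidec, Cfd, Retn and Lep at Pearson's r of 0.636, 0.634, 0.159 and -0.0446.

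**Figure D1:**
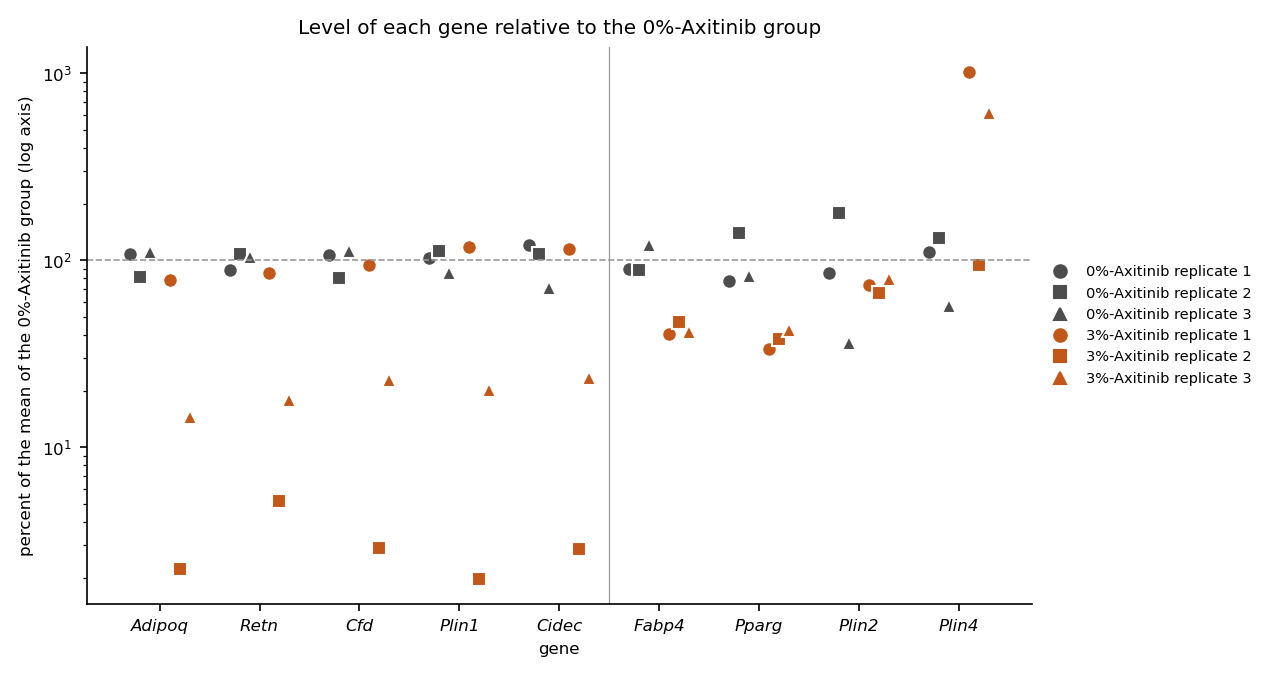
Level of 9 genes in each sample as a percent of the mean of the 0%-Axitinib group, on a log axis; each point is 1 sample, and Lep is left out because of its zeros. For the 5 genes left of the vertical line, 3%-Axitinib replicate 1 was near 100% and replicate 2 below all other samples, while Fabp4 and Pparg were at similar percents in the 3 treated samples.

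Lep (chromosome 6, 29060220 to 29073877, plus strand) encodes leptin, the hormone by which fat cells report their lipid stores. It was at 1.36, 2.57 and 1.25 CPM in the controls, from 26, 44 and 23 reads, and the treated samples held 1, 0 and 0 reads. All treated samples were under the limit of detection, including replicate 1, in which Adipoq was near the level of the controls. Over the pooled samples Lep was lower in the 3%-Axitinib group by a ratio of 63.5, with a 95% interval for counting error of 11.1 to 2533. Differences among samples are left out of this interval, so it does not test the groups. The fitted log2 fold change of -5.58 (SE 0.97) depends on the prior count. It was -4.87 without 3%-Axitinib replicate 3 and -7.84 without replicate 1, which left only treated samples with 0 reads. Lep met the criterion with any 1 sample omitted. Because it passed the filter on low counts through the controls alone, nothing is read from these calls. Per 100 reads of Adipoq there were 6.18, 15.4 and 5.57 reads of Lep in the controls and 0.685 in 3%-Axitinib replicate 1 (95% interval 0.0172 to 3.88). That interval overlapped the interval of the lowest control (3.49 to 8.47) and not those of the other controls. In 3%-Axitinib replicates 2 and 3, with 5 and 51 reads of Adipoq, 0 reads of Lep allowed up to 109 and 7.50 per 100. The limit in replicate 3 lay below the interval of 0%-Axitinib replicate 2 (10.9 to 21.2) and within those of the other controls, and that in replicate 2 lay above all of them.

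**Figure D2:**
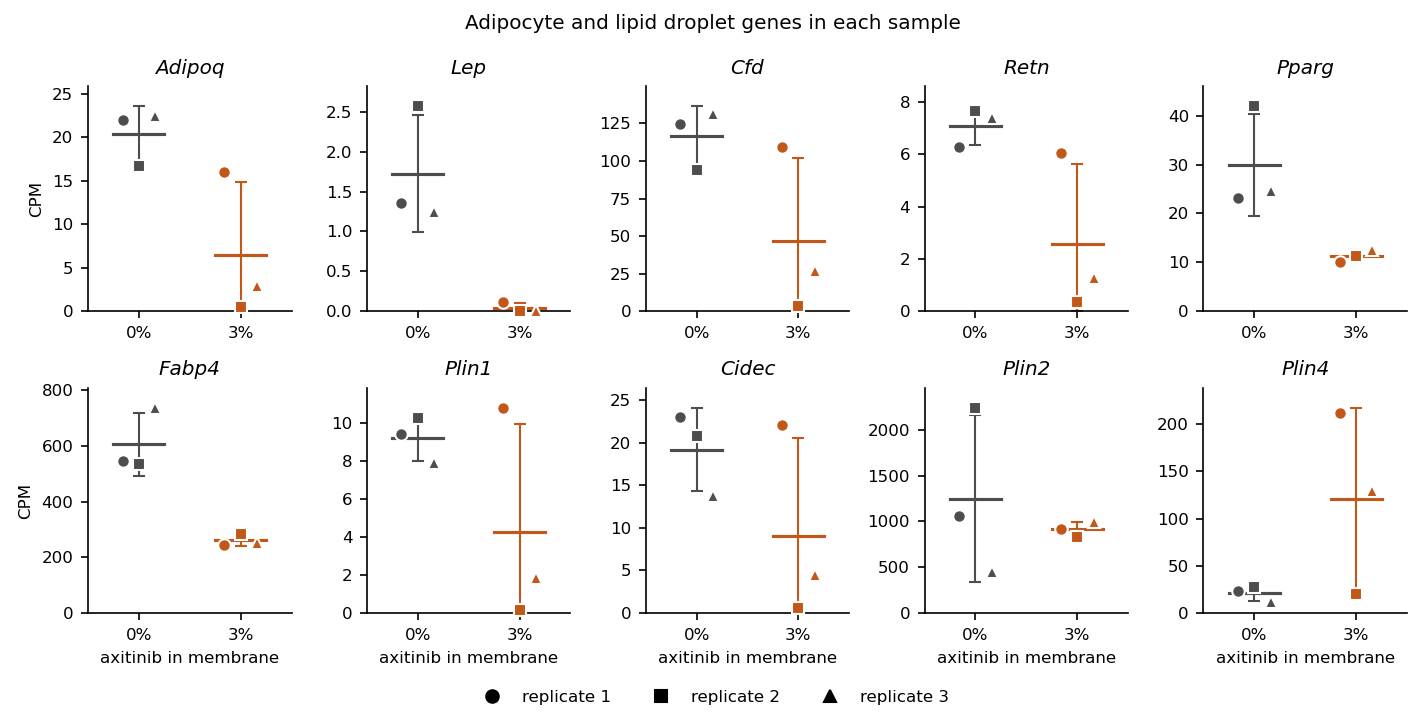
Level of the 10 genes in CPM on linear axes, with 1 point per sample, a line at the mean of each group and bars of 1 SD (n = 3, cut at 0). Fabp4 and Pparg were low in the 3 treated samples, whereas Adipoq, Cfd, Retn, Plin1 and Cidec were low in replicates 2 and 3 of that group, and Plin4 was high in replicates 1 and 3.

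Pparg (chromosome 6, 115360951 to 115490399, plus strand), the gene of PPARγ, was measured at 23.2, 41.9 and 24.6 CPM in the controls and at 10.0, 11.3 and 12.6 CPM in the treated samples. The groups did not overlap, the treated samples lay close together, and replicate 1 was the lowest of them rather than the highest. Pparg averaged 29.9 ± 10.4 CPM in the controls and 11.3 ± 1.31 CPM in the treated samples (SD, n = 3 each), and the log2 fold change was -1.40 (SE 0.29). Fabp4 (chromosome 3, 10204088 to 10208576, minus strand) encodes a cytoplasmic carrier of fatty acids. It showed 547, 536 and 736 CPM in the controls against 246, 285 and 252 CPM, again without overlap and with little difference among the treated samples. It averaged 606 ± 112 and 261 ± 21.0 CPM (SD, n = 3 each), with a log2 fold change of -1.22 (SE 0.25). Both genes met the criterion with any 1 sample omitted.

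Capillary endothelium also expresses Fabp4 and Pparg, and its markers were lower in the same group. Of 15 tested genes of that list, 10 were lower by the study's criterion and 0 higher, with a median of -1.23. Without 3%-Axitinib replicate 2 there were 7 lower, and without 0%-Axitinib replicate 3 there were 8 lower and 1 higher (Rgcc, 1.27). Emcn missed the criterion with limma-voom and without 0%-Axitinib replicate 3 (-0.59), 3%-Axitinib replicate 1 (-0.78), 3%-Axitinib replicate 2 (-1.06) and 3%-Axitinib replicate 3 (-1.09). Tek missed the criterion without 0%-Axitinib replicate 1 (-0.81) and 3%-Axitinib replicate 2 (-0.97). The list summed to 1413, 922 and 1268 CPM in the controls and 538, 498 and 805 CPM in the treated samples, and no gene of it was at 0. Aqp1, a water channel and its most abundant gene, had 590, 341 and 263 CPM against 323, 199 and 457 CPM, with overlap. Cldn5, a claudin of tight junctions, fell from 36.3, 32.0 and 94.6 to 7.92, 10.9 and 12.3 CPM, a log2 fold change of -2.38 (SE 0.47), and had -1.71 once 0%-Axitinib replicate 3 was omitted. The part of endothelial RNA in the levels of Fabp4 and Pparg was not tested.

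Plin2 (chromosome 4, 86648386 to 86670060, minus strand), the perilipin of most cells, was measured at 1063, 2233 and 449 CPM in the controls and at 917, 831 and 996 CPM in the treated samples. All treated samples lay inside the wide range of the controls. The log2 fold change of -0.45 (SE 0.55) turned to 0.27 when 0%-Axitinib replicate 2 was omitted and to -0.85 when replicate 3 of that group was, where Plin2 met the study's criterion, so no direction is given. Genes of lipid-laden macrophages ranked the controls as Plin2 did, at a sum of 23858, 43442 and 12186 CPM against 21784, 21256 and 31218 CPM in the treated samples. By the criterion 1 of 15 was higher (Spp1) and 2 were lower (Cd36 and Soat1), with a median of -0.28. Single controls moved these figures: the median was 0.19 with 0 lower without 0%-Axitinib replicate 2, and -0.51 with 6 lower and 0 higher without replicate 3. Gpnmb, a lysosomal glycoprotein and the most abundant of them, had 6473, 16437 and 1663 CPM in the controls against 4098, 2192 and 7703 CPM. Cd36, a fatty acid translocase, had 1392, 3367 and 469 against 443, 409 and 711 CPM, a log2 fold change of -1.74 (SE 0.69), and missed the criterion with the replicate block and limma-voom and without 0%-Axitinib replicate 1 (-1.88), 0%-Axitinib replicate 2 (-0.84), 3%-Axitinib replicate 1 (-1.63), 3%-Axitinib replicate 2 (-1.59) and 3%-Axitinib replicate 3 (-2.04). Spp1, the gene of osteopontin, had 1053, 1265 and 1240 against 1620, 5575 and 1657 CPM, a log2 fold change of 1.31 (SE 0.55), and missed the criterion with total counts, the replicate block and limma-voom and without 0%-Axitinib replicate 1 (1.23), 0%-Axitinib replicate 2 (1.36), 0%-Axitinib replicate 3 (1.34) and 3%-Axitinib replicate 2 (0.47). Soat1, a cholesterol acyltransferase, had -0.90 and missed the criterion with the replicate block and without 0%-Axitinib replicate 2 (-0.49), 3%-Axitinib replicate 1 (-0.90), 3%-Axitinib replicate 2 (-0.85) and 3%-Axitinib replicate 3 (-0.96).

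General macrophage markers summed to 11716, 12190 and 8944 CPM in the controls and 8474, 10872 and 16950 CPM in the treated samples, with Lyz2 the most abundant. Of 12 tested genes, 0 were higher and 0 lower by the criterion with edgeR, DESeq2 or limma-voom, and 1 was lower without 0%-Axitinib replicate 3 (Adgre1, -1.35). No gene of either macrophage list was at 0. The part of macrophage RNA in the level of Plin2 was not tested.

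Plin4 (chromosome 17, 56100591 to 56109803, minus strand) encodes a perilipin of small droplets in fat cells and muscle fibres. It was measured at 23.3, 27.5 and 11.9 CPM in the controls and at 212, 19.8 and 129 CPM in 3%-Axitinib replicates 1, 2 and 3. Replicates 1 and 3 were far above all controls and replicate 2 within their range, so the groups overlapped. The log2 fold change of 2.52 (SE 0.79) was 1.84 without 3%-Axitinib replicate 1, where Plin4 missed the study's criterion, as it did with limma-voom and the replicate block. Exons of Plin4 overlap those of Hdgfl2 on the other strand, and whether reads were counted by strand is not stated. Hdgfl2, in the table under its older symbol Hdgfrp2 and looked up after the values of Plin4 were seen, had 46.1, 41.1 and 56.1 CPM in the controls and 92.9, 87.1 and 91.1 CPM in the treated samples. The part of its reads in the counts of Plin4 was not tested.

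Skeletal muscle genes were high in the samples in which Plin4 was high. They summed to 204, 21.7 and 32.6 CPM in the controls and 18898, 45.7 and 10426 CPM in 3%-Axitinib replicates 1, 2 and 3. By the criterion 17 of 19 tested genes were higher and 0 lower, with a median of 6.77, and all of them overlapped between the groups. Limma-voom called 1 of them higher (Des), at a median of 5.09, and with 1 sample omitted edgeR called 13 to 19, at medians from 5.91 without 3%-Axitinib replicate 1 to 8.71 without 0%-Axitinib replicate 1. Acta1, an actin and the most abundant, had 35.1, 0.292 and 0.0543 CPM in the controls against 3924, 0.0911 and 1852 CPM. Mb, the gene of myoglobin, rose from 1.41, 0.0583 and 0 to 644, 0.729 and 128 CPM, a log2 fold change of 8.99 (SE 2.44), and missed the criterion with limma-voom and had 12.77 once 0%-Axitinib replicate 1 was omitted, 8.40 once 0%-Axitinib replicate 3 was omitted and 6.99 once 3%-Axitinib replicate 1 was omitted. Ckm and Myh4 were at 0 in 0%-Axitinib replicate 3 and 3%-Axitinib replicate 2. The part of muscle RNA in the level of Plin4 was not tested.

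Other droplet proteins beside Plin1, Plin2, Plin4 and Cidec had a median of 0.16 over 11 tested genes, with 2 higher (Plin5 and Fitm2) and 1 lower (Lpcat1) by the criterion. Of 13 tested, 3 were higher without 0%-Axitinib replicate 2 or 0%-Axitinib replicate 3, and 4 without 3%-Axitinib replicate 2. Without 3%-Axitinib replicate 1, 0 were higher and 0 lower. Plin5, the perilipin of oxidative tissues, had 0.418, 0.117 and 0.923 CPM in the controls and 12.1, 0.364 and 3.82 CPM in the treated samples, high where Plin4 was high. Its log2 fold change was 3.44 (SE 1.22), and it missed the criterion with limma-voom and without 0%-Axitinib replicate 1 (3.34), 0%-Axitinib replicate 2 (2.99) and 3%-Axitinib replicate 1 (2.12) and had 4.26 once 0%-Axitinib replicate 3 was omitted. Fitm2, which helps droplets form, had 0.98 and missed the criterion without 3%-Axitinib replicate 1 (0.75) and 3%-Axitinib replicate 3 (0.97). Lpcat1, a phospholipid acyltransferase, had -1.12 and missed the criterion without 3%-Axitinib replicate 1 (-0.98). The most abundant, Hsd17b11, had 172, 230 and 154 against 175, 158 and 177 CPM.

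The 10 genes were ordered by CPM per kilobase of the principal transcript (mean ± SD, n = 3). In the controls Fabp4 (677 ± 126) and Plin2 (661 ± 480) stood at the top and did not differ beyond their spread, followed by Cfd (126 ± 21.5). Pparg (16.9 ± 5.89), Adipoq (15.8 ± 2.48) and Cidec (11.1 ± 2.83) came next with overlapping spreads, then Retn (6.23 ± 0.643). Plin4 (3.63 ± 1.40) and Plin1 (3.26 ± 0.431) did not differ beyond their spread, and Lep was lowest (0.529 ± 0.224). In the treated samples Plin2 (485 ± 43.7) stood above Fabp4 (291 ± 23.5), and the spreads of Plin4 (20.9 ± 16.7) and Adipoq (5.02 ± 6.49) overlapped.

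Genes other than the 10 were ranked by how closely their log2 CPM followed the mean of Adipoq, Plin1, Cidec, Cfd, Retn and Lep over the 6 samples. The closest were Zfp870 (Pearson's r 0.994), ENSMUSG00000110316 (0.993), Lin52 (0.989), Rfx5 (0.983) and Hcn3 (0.982), the top of 15257 tested genes and so only a description. Zfp870 had 7.26, 7.17 and 7.12 CPM in the controls against 7.15, 6.01 and 6.54 CPM, and Rfx5 had 7.57, 7.29 and 5.59 against 5.61, 2.00 and 3.47 CPM.

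RefSeq promoters for GRCm38.p6, windows from 250 bases before to 50 after a start, were at hand for 9 of the 10 genes, all but Fabp4, and were searched on both strands for 4 short motifs. The 9 genes have 12 windows, 3 of Pparg and 2 of Cidec, so a gene with more windows has more chances of a match. AGGTCA, the site of nuclear receptors such as PPARγ in its single form, occurs in 16.3% of 32851 windows and was found in 3 of the 12, for Plin2 and Pparg. TTGCNNAA, a form of the C/EBP site, occurs in 10.8% and was found in 4 of the 12, for Cidec, Lep, Plin1 and Pparg. ACGTG, the core site of hypoxia-inducible factors, occurs in 19.6% and was found in 1 of the 12, for Plin2, and TATAA of the TATA box occurs in 24.9% and was found in 3 of the 12, for Lep, Plin4 and Pparg. Printed here are the windows of Adipoq (chr16:23146286-23146585, plus strand) from the genes that ran in parallel, of Lep (chr6:29059971-29060270, plus strand), and of Plin2 (chr4:86670010-86670309, minus strand) and Plin4 (chr17:56109733-56110032, minus strand), which departed from Adipoq. Capitals mark a match to any of the 4 motifs. TTGCGCAA and TTATAA in Lep and CACGTG in Plin2 hold overlapping matches on both strands, and Adipoq has no match. A match is a string of letters and says nothing of binding.
Adipoq: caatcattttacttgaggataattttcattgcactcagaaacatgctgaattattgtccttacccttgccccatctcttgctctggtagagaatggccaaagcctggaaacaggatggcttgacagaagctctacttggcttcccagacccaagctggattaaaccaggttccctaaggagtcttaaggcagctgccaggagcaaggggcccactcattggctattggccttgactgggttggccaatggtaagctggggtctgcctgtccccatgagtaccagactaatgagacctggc
Lep: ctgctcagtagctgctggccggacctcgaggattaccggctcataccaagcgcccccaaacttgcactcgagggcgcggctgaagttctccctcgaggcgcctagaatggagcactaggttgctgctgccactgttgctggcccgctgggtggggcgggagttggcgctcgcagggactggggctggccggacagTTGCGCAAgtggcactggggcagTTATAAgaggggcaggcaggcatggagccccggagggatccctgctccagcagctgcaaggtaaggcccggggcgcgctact
Plin2: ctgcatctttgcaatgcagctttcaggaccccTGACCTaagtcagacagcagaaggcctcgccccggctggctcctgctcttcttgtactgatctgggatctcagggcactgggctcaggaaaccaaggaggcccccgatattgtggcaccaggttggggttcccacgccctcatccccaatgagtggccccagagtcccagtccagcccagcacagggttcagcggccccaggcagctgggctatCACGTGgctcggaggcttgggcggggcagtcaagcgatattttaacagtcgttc
Plin4: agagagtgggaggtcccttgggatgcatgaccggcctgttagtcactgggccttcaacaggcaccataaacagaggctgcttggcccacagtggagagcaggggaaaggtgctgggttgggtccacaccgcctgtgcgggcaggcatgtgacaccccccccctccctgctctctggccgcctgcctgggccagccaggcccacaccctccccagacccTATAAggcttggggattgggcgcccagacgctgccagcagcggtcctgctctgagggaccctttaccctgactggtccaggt

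Other genes by which fat cells are recognised were looked at beside Adipoq. Of 13 tested, 5 were lower by the criterion (Adrb3, Tusc5, Aqp7, Aoc3 and Lgals12) and 0 higher, with a median of -0.53, and without 3%-Axitinib replicate 1 there were 7 lower at a median of -1.36. Adrb3, the β3-adrenergic receptor of fat cells, fell from 2.14, 3.79 and 2.44 to 0.550, 0 and 0.463 CPM, a log2 fold change of -3.01 (SE 0.84). Tusc5, now Trarg1, which helps a glucose transporter travel, had 11.1, 9.27 and 9.56 against 2.09, 4.65 and 2.43 CPM. As for Pparg and Fabp4, Tusc5 was low in all treated samples. Adrb3, with 13 reads over the treated samples, passed the filter on low counts through the controls alone, so nothing is read from its call. Aqp7 missed the criterion without 0%-Axitinib replicate 1 (-1.38) and 3%-Axitinib replicate 1 (-1.19), Aoc3 missed the criterion without 0%-Axitinib replicate 1 (-0.85), 0%-Axitinib replicate 2 (-1.10), 3%-Axitinib replicate 1 (-1.04) and 3%-Axitinib replicate 3 (-0.96), and Lgals12 missed the criterion without 0%-Axitinib replicate 1 (-2.04), 0%-Axitinib replicate 2 (-2.19), 3%-Axitinib replicate 2 (-1.97) and 3%-Axitinib replicate 3 (-1.93) and had -3.65 once 3%-Axitinib replicate 1 was omitted. Car3, the most abundant and also made by muscle, had 141, 119 and 70.4 against 410, 19.0 and 123 CPM.

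Lipolysis genes, which act on the droplets that Plin1 guards, had a median of -0.85 over 16 tested, with 6 lower (Adrb3, Pde3b, Aqp7, Hcar1, Prkar2b and G0s2) and 0 higher by the criterion. Nothing is read from the call of Adrb3, which passed the filter through the controls alone. There were 3 lower with the replicate block or without 0%-Axitinib replicate 3, 3%-Axitinib replicate 1 or 3%-Axitinib replicate 3, and the median was -0.46 in the case of 0%-Axitinib replicate 3. Hcar1 missed the criterion with the replicate block and without 0%-Axitinib replicate 1 (-1.39), 0%-Axitinib replicate 3 (-1.55), 3%-Axitinib replicate 1 (-1.20) and 3%-Axitinib replicate 3 (-1.45) and had -2.27 once 3%-Axitinib replicate 2 was omitted. Prkar2b missed the criterion with the replicate block and limma-voom and without 0%-Axitinib replicate 3 (-0.47), 3%-Axitinib replicate 1 (-1.04), 3%-Axitinib replicate 2 (-1.05) and 3%-Axitinib replicate 3 (-0.79). G0s2 missed the criterion with the replicate block and limma-voom and without 0%-Axitinib replicate 3 (-0.65), 3%-Axitinib replicate 2 (-1.95) and 3%-Axitinib replicate 3 (-1.87). The most abundant, the triglyceride lipase gene Pnpla2, had 164, 234 and 116 CPM in the controls against 392, 162 and 375 CPM, and was higher by the criterion without 0%-Axitinib replicate 2 (1.14) or 3%-Axitinib replicate 2 (1.16). In fatty acid and triglyceride synthesis the median was 0.08 over 19 tested genes (-0.14 without 0%-Axitinib replicate 1), with Acaca higher and Thrsp and Acly lower. Thrsp, a lipogenic nuclear protein, had 10.5, 5.83 and 11.6 against 0.880, 1.46 and 2.89 CPM, a log2 fold change of -2.39 (SE 0.53), and had -2.98 once 3%-Axitinib replicate 3 was omitted, while Acly missed the criterion without 0%-Axitinib replicate 1 (-0.66), 3%-Axitinib replicate 1 (-0.71) and 3%-Axitinib replicate 2 (-0.54). In fatty acid uptake the median was -0.11 over 14, with Vldlr higher and Gpihbp1 and Cd36 lower. Vldlr, a lipoprotein receptor, had 26.7, 18.1 and 18.1 against 81.8, 72.2 and 71.2 CPM, a log2 fold change of 1.84 (SE 0.22; edgeR's quasi-likelihood test, adjusted p 0.0965, range 2.86e-09 to 0.280 over the alternatives). Gpihbp1, which anchors lipoprotein lipase on endothelium, had 34.2, 36.4 and 108 against 1.21, 9.84 and 24.8 CPM, a log2 fold change of -2.30 (SE 0.94), and missed the criterion without 0%-Axitinib replicate 3 (-1.54) and 3%-Axitinib replicate 2 (-2.16) and had -3.41 once 3%-Axitinib replicate 3 was omitted.

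Transcription factors of fat cell differentiation other than Pparg had a median of 0.13 over 16 tested (-0.05 without 3%-Axitinib replicate 1), with 1 higher by the criterion (Klf15, 2.54) and 0 lower. Cebpa, the most abundant and a partner of Pparg, had 183, 215 and 154 CPM in the controls against 115, 116 and 182 CPM, with overlap where Pparg had none, and was lower by the criterion without 3%-Axitinib replicate 3 (-0.68). Other adipokines than Adipoq, Lep, Cfd and Retn had a median of 0.06 over 16, with Rbp4, Rarres2 and Agt among the higher genes and Apln lower. Their median was -0.13 without 3%-Axitinib replicate 1, 0.31 without 3%-Axitinib replicate 3 and 0.51 with the replicate block. Rbp4, the retinol carrier, had 13.7, 9.62 and 12.6 against 49.0, 139 and 40.2 CPM, a log2 fold change of 2.66 (SE 0.50), and had 1.90 once 3%-Axitinib replicate 2 was omitted. Apln, a peptide hormone, had 21.7, 16.9 and 120 against 9.13, 9.48 and 3.71 CPM, a log2 fold change of -2.84 (SE 0.84), and missed the criterion with the replicate block and had -1.39 once 0%-Axitinib replicate 3 was omitted. Rarres2 had 1.25 once 3%-Axitinib replicate 1 was omitted, and Agt missed the criterion with total counts and without 0%-Axitinib replicate 2 (0.65), 3%-Axitinib replicate 1 (0.72) and 3%-Axitinib replicate 3 (0.89). In the insulin response the median was -0.24 over 10, with Slc2a4 higher and Tusc5 lower. Slc2a4, the glucose transporter of fat and muscle, had 6.32, 3.32 and 9.56 against 61.1, 5.38 and 47.8 CPM, high where Plin4 was high, and missed the criterion with limma-voom and without 0%-Axitinib replicate 2 (2.26), 3%-Axitinib replicate 1 (2.07) and 3%-Axitinib replicate 3 (2.38).

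**Figure D3:**
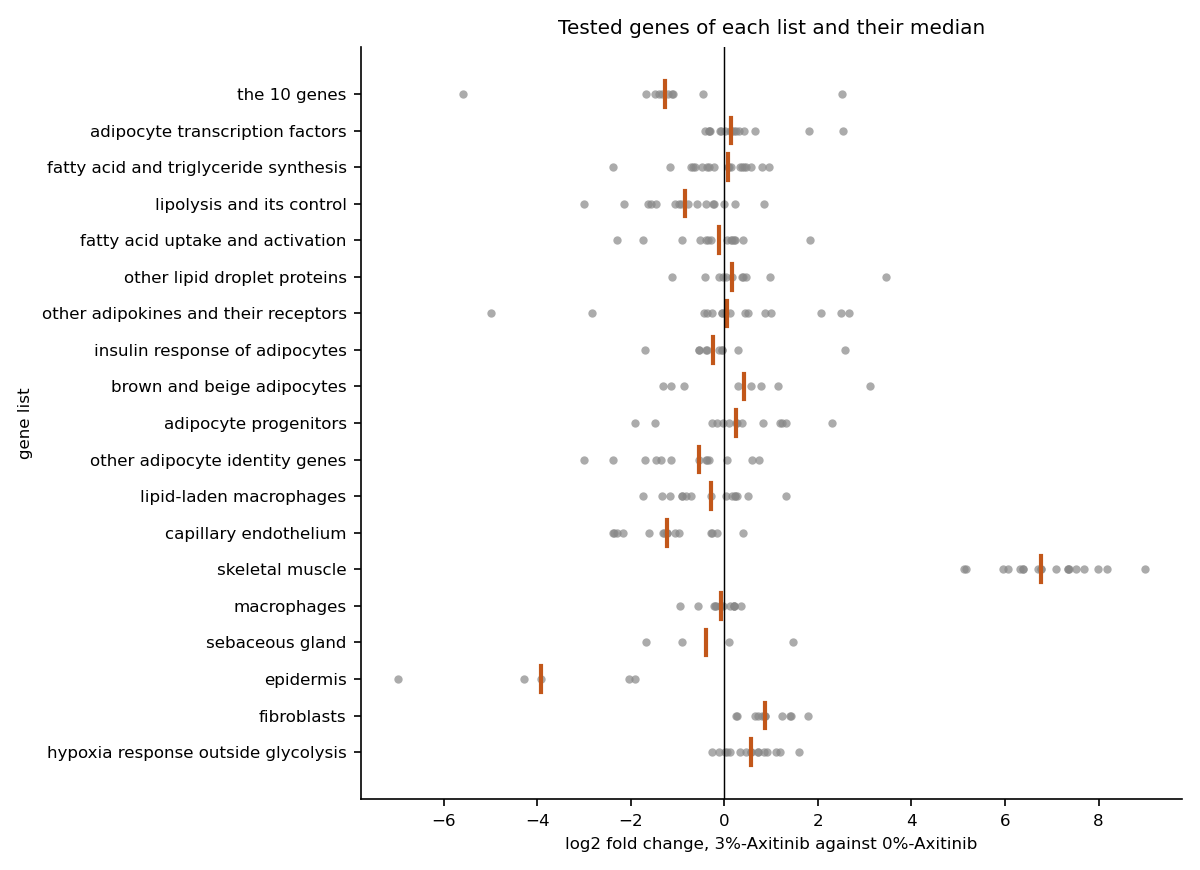
Log2 fold change of 3%-Axitinib against 0%-Axitinib for the tested genes of each list (grey points) and their median (bars). The 10 genes had a median of -1.27, capillary endothelium -1.23 and skeletal muscle 6.77.

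Further lists described the tissue around the fat cells, and their part in the levels of the 10 genes was not tested. Fibroblast genes summed to 33335, 17332 and 11498 CPM in the controls and 31106, 76900 and 33495 CPM in the treated samples, highest in 3%-Axitinib replicate 2, where Adipoq was lowest. Their median was 0.86 over 12 tested, with Col1a1, Fbln1, Thy1 and Mfap5 higher. Col1a1, the most abundant, had 7130, 3236 and 3181 against 6774, 30639 and 9337 CPM and missed the criterion with total counts and the replicate block and without 0%-Axitinib replicate 2 (1.59), 0%-Axitinib replicate 3 (1.58), 3%-Axitinib replicate 2 (0.83) and 3%-Axitinib replicate 3 (2.04). Thy1 missed the criterion with total counts and the replicate block and without 0%-Axitinib replicate 2 (0.77), 0%-Axitinib replicate 3 (0.70), 3%-Axitinib replicate 1 (1.01), 3%-Axitinib replicate 2 (0.52) and 3%-Axitinib replicate 3 (1.02), and Mfap5 missed the criterion without 0%-Axitinib replicate 2 (1.34) and 3%-Axitinib replicate 1 (1.17). Markers of brown and beige fat had a median of 0.42 over 8 tested, with Cox7a1 higher and Tmem26 lower, and Ucp1 was under the limit of detection in every sample. Their median was near 0 without 3%-Axitinib replicate 1 and 0.996 without 0%-Axitinib replicate 1. Without 0%-Axitinib replicate 1 or 0%-Axitinib replicate 3, 3 of 9 tested were higher. Cox7a1, also of muscle, had 1.51, 1.52 and 1.96 against 27.2, 4.28 and 12.2 CPM and had 2.32 once 3%-Axitinib replicate 1 was omitted, and Tmem26 missed the criterion without 0%-Axitinib replicate 2 (-1.32), 0%-Axitinib replicate 3 (-1.18), 3%-Axitinib replicate 1 (-1.02) and 3%-Axitinib replicate 3 (-1.17). Progenitor markers had a median of 0.25 over 14, with Wnt2, Sox9 and Ly6a higher and Gata2 and Gata3 lower. Sox9 missed the criterion without 0%-Axitinib replicate 2 (1.14) and 3%-Axitinib replicate 2 (0.87), and Ly6a missed the criterion without 0%-Axitinib replicate 2 (0.94) and 3%-Axitinib replicate 1 (0.94). Gata2 missed the criterion with limma-voom and without 0%-Axitinib replicate 3 (-0.82), 3%-Axitinib replicate 1 (-1.58) and 3%-Axitinib replicate 2 (-1.76) and had -2.56 once 3%-Axitinib replicate 3 was omitted, and Gata3 missed the criterion with the replicate block and limma-voom and without 0%-Axitinib replicate 2 (-1.31), 0%-Axitinib replicate 3 (-1.22), 3%-Axitinib replicate 1 (-1.38) and 3%-Axitinib replicate 3 (-1.37).

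Epidermis genes summed to 13.4, 1071 and 15.9 CPM in the controls and 17.4, 14.2 and 18.4 CPM in the treated samples, and Flg was at 0 throughout. Krt1 was the most abundant, but it did not pass the filter on low counts. Its rank rests on 0%-Axitinib replicate 2, the only sample with a high sum. Lor and Krt10 were lower among 5 tested genes, at a median of -3.93 that was -0.56 without 0%-Axitinib replicate 2, where 0 were lower. Without 0%-Axitinib replicate 1 or 0%-Axitinib replicate 3, 5 of 6 tested were lower, and with no filter 9 of 11 were. Lor missed the criterion with DESeq2's Wald test and limma-voom and without 0%-Axitinib replicate 2 (-1.21), 3%-Axitinib replicate 1 (-6.50), 3%-Axitinib replicate 2 (-8.22) and 3%-Axitinib replicate 3 (-6.66). Krt10 missed the criterion with the replicate block, DESeq2's Wald test and limma-voom and without 0%-Axitinib replicate 2 (0.52), 3%-Axitinib replicate 1 (-3.94), 3%-Axitinib replicate 2 (-4.15) and 3%-Axitinib replicate 3 (-3.71). Sebaceous gland genes summed to 308, 545 and 230 CPM against 203, 185 and 215 CPM, almost all of it Soat1, with a median of -0.40 over 4 tested. That median was 0.49 without 0%-Axitinib replicate 2, -0.90 without 3%-Axitinib replicate 1 and -1.27 over 12 genes with no filter. Hypoxia response genes had a median of 0.57 over 16, with Ddit4, Vegfa, Bnip3 and P4ha2 higher and Ndrg1 the most abundant. Bnip3 missed the criterion with total counts and without 0%-Axitinib replicate 1 (1.29), 0%-Axitinib replicate 3 (0.94), 3%-Axitinib replicate 1 (0.65) and 3%-Axitinib replicate 3 (1.30).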

How the data were processed

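Poly(A) RNA of the 6 samples was sequenced by the authors, who trimmed reads with fastp, mapped them to mm10 with STAR 2.5.2b and deposited raw read counts per gene symbol. Annotation release and strand use are not stated. The lines for reads given to no gene entered no library size or test. The counts went through edgeR 4.0.16 in R 4.3.3, with filterByExpr (minimum count 10, minimum total 15), TMM, the quasi-likelihood test of 3%-Axitinib against 0%-Axitinib and Benjamini-Hochberg adjustment. The fit was tested on simulated data. The median log2 fold change of all tested genes was -0.03. Log2 CPM used a prior count of 2, and the P-value of the study's criterion was read as unadjusted. The criterion was applied to the fits made here, so counts by it are not the study's own.

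The 10 genes and the 18 lists were chosen with earlier results of these data known. Named genes of a list are the largest increase and largest decrease by the criterion and the most abundant gene; all others were named after their values were seen. Ratios of counts have exact 95% intervals. Positions and lengths come from GENCODE for GRCm38. Gyk was not in the table. Several list genes, such as Cebpa, Adrb3, Spp1 and Mb, share exon sequence with another gene. Alternatives were size factors of DESeq2 1.42.0, total counts, TMM without muscle genes, no filter, 10 counts in every sample, a replicate block, the Wald test of DESeq2, limma-voom (limma 3.58.1) and omission of each sample. Figures used matplotlib 3.10.9 in Python 3.11.15.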

Additional observations from a re-analysis of the deposited data

How the results depend on the processing

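The number of genes at an adjusted p of at most 0.05 depended on the fit. Against 1 gene with edgeR's quasi-likelihood test it was 15 without a filter, 2 with limma-voom and 1961 with DESeq2's Wald test. Omitting single samples gave 1252 without 0%-Axitinib replicate 3, 58 without 3%-Axitinib replicate 2 and 0 for each of the others with edgeR, where 2417 to 3513 genes passed 0.05 before adjustment. With the replicate block it was 2. The labels do not say that replicate numbers pair the samples. Deviations of log2 CPM from the group mean correlated at 0.18, -0.12 and -0.17 between same-numbered samples, which cannot settle the pairing. The study's criterion, applied here to these fits, was met by 2365 to 4422 genes, against 3241. The count of higher genes reached 2274 without 0%-Axitinib replicate 3. In its own processing the study reported fewer genes in all, with more higher than lower. The median of the 10 genes was -2.33 with limma-voom, -2.91 without 3%-Axitinib replicate 1 and -0.88 without 3%-Axitinib replicate 2. It was negative in all 14 alternatives, of which 10 counts in every sample tested only 5 of the 10 genes.

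Fabp4 and Pparg met the criterion under every alternative. Lep, which passed the filter through the controls alone, met the criterion under all that tested it. Plin4 missed it with limma-voom, with the replicate block and without 3%-Axitinib replicate 1. With limma-voom Adipoq, Cfd, Retn, Plin1 and Cidec met it, among 1484 lower genes of 15257 tested. Total counts moved the median of all genes to -0.16 and gave 989 higher and 2448 lower genes, against 1456 and 1785. Depth limits what can be said of Lep and of Adipoq in 3%-Axitinib replicate 2.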

Other observations

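Lcn2, known as an antibacterial protein, had 2.35, 4.96 and 1988 CPM in the controls and 26.0, 25.0 and 12.3 CPM in the treated samples. It was the most abundant of the other adipokines through 0%-Axitinib replicate 3 alone, as it lay below Rbp4 in every other sample. Its log2 fold change of -4.98 (SE 2.32) was 2.52 without 0%-Axitinib replicate 3, so that 1 library set its direction. In the same sample G0s2, an inhibitor of a lipase, was also highest, with 4.07, 6.12 and 33.3 CPM in the controls against 5.50, 2.37 and 2.03 CPM, and Plin2 was lowest. Cyp2e1, at 59.5, 38.5 and 13.9 CPM against 69.7, 0.547 and 7.53 CPM, and Pck1, at 12.7, 14.3 and 4.40 CPM against 13.2, 0 and 0.984 CPM, ranked the treated samples as Adipoq did. G0s2, Cyp2e1 and Pck1 were named after their values were seen.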
